A study of Homo sapiens with 8 samples.

Results

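The genes described here are the p53 inhibitors and p53 target genes MDM2, MDM4, PPM1D, GADD45A, SESN1, SESN2, BTG2, ZMAT3 and TP53INP1. They were taken as a list of symbols, each matched to its Ensembl identifier in the deposited tables, and they make up 9 of the 63677 genes counted. All 9 were counted in all 8 libraries, and all 9 passed the filter on low counts in every comparison.

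p53 is a transcription factor that is held at a low level by MDM2, a ubiquitin ligase that marks it for degradation, and by MDM4, a related protein that binds and inhibits it. When DNA is damaged or transcription is disturbed, p53 is stabilised and switches on genes that arrest the cell cycle, repair DNA, limit growth or kill the cell. MDM2 and PPM1D are themselves p53 targets, so the response carries its own negative feedback.

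The study treated multiple myeloma cell lines, which grow from malignant plasma cells, with THZ1, a covalent inhibitor of the transcriptional kinase CDK7, to find genes that depend on superenhancers. RNA-seq was done on JJN3 and H929 cells given 50 nM THZ1 or the solvent DMSO, harvested after 24 h, with 2 libraries in each of the 4 groups. The labels name no transgene or genetic change, and both lines were grown in RPMI-1640 medium with serum. The labels do not say whether the libraries of a group came from separate cultures, so p-values measure only the spread between these libraries, which may be technical. Each library held between 17476443 and 19194371 counted reads. At this depth the members had between 281 and 10201 reads in a library, far above a floor of 3 reads. Reads are not independent molecules without molecular identifiers, so the floor covers counting error only.

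Before the members are described, a feature of the H929 labels has to be given. Plasma cells express either kappa or lambda immunoglobulin light chain, and lambda took 0.257% to 0.391% of light chain V gene reads in the 4 JJN3 libraries. In the libraries labelled H929 THZ1 the lambda share was 0.212% and 0.211%, whereas in those labelled H929 DMSO it was 99.99% and 98.0%. The 2 H929 groups therefore differ in the cells they came from as well as in the label THZ1, and treatment and source cannot be told apart in any comparison between them. Those libraries are called H929-labelled below, and only the JJN3 comparison is read as THZ1 against DMSO. The library labelled H929 DMSO replicate 2 stood apart in a further way. Of 85 genes at 0 in the other H929-labelled DMSO library and at 400 or more reads in both H929-labelled THZ1 libraries, 85 had reads in it, at a median of 2.02% of the THZ1-labelled level. All 10 plasma cell markers examined, such as IRF4 and XBP1, were above 3 reads in at least 1 library of every group, with a summed level of 4881 to 4925 normalised CPM in JJN3 DMSO, 4527 to 4719 in JJN3 THZ1, 3651 to 3869 in H929-labelled DMSO and 12497 to 12533 in H929-labelled THZ1 libraries. Normalised CPM are counts-per-million values after scaling of the 8 libraries by the trimmed mean of M-values. The summed level of 4 myeloid markers was at most 1.08 normalised CPM in any library. That of 4 T and NK cell markers was 2.41 to 2.74 in JJN3 DMSO, 3.39 to 5.08 in JJN3 THZ1, 7.43 to 7.76 in H929-labelled DMSO and 34.2 to 34.6 in H929-labelled THZ1 libraries. In the same order of groups, 4 stromal and epithelial markers summed to 70.1 to 73.6, 72.1 to 88.0, 129.7 to 132.5 and 0.423 to 0.631, and 4 B cell markers to 65.7 to 66.5, 21.8 to 22.0, 158.7 to 159.9 and 1.52 to 1.53. In bulk RNA, fewer cells of a kind and less RNA per cell cannot be told apart.

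The p53 recognition element consists of 2 decamers, each called a half-site, with a spacer of up to 13 bases between them. Start windows of 250 bases before to 50 bases after each annotated start were read from RefSeq for GRCh38.p14, and 7 of the 9 members had at least 1 window, 13 windows in all. GADD45A and TP53INP1 were not searched here. Both strands were searched for the p53 consensus, allowing at most 2 mismatches in a full site. A first search with a stricter core in each half-site found no full site in the members' windows, and the core was then relaxed. Among 35116 windows of all genes, 2.93% held a full site and 6.63% held at least 1 exact half-site. MDM2 and SESN1 are shown because they were the members whose windows held a match. The MDM2 site, with 2 mismatches and no spacer, lies 94 to 75 bases before a downstream start of the gene, at the promoter known to answer to p53. The SESN1 half-site lies 49 to 40 bases before an internal start. Capitals mark the span of the full site or the half-site, with the 2 mismatched bases of the MDM2 site included. Both stretches are written 5′ to 3′ on the gene's strand. They lie at chr12:68808918-68808947 on the plus strand and chr6:109009013-109009042 on the minus strand of GRCh38.p14. In GRCh37 each stretch was found once on its chromosome, at chr12:69202698-69202727 and chr6:109330216-109330245, inside the gene and in no annotated exon. A match is a description of the letters and not a site shown to be bound.
MDM2 start window: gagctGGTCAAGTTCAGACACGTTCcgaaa
SESN1 start window: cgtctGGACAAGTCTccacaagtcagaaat

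In JJN3 cells, 5 of the 9 members rose with THZ1 and 0 fell by edgeR, and 0 fell by DESeq2. The risers were ZMAT3, SESN1, TP53INP1, GADD45A and BTG2, and their increases ran from 0.69 to 1.65 on the log2 scale. MDM2, MDM4, SESN2 and PPM1D were not called. At an unadjusted p under 0.05 by edgeR, 1 member was lower and 6 were higher. The share of all genes at that cut was not counted. A gene was called when edgeR's quasi-likelihood test gave a Benjamini-Hochberg adjusted p under 0.05 and the log2 fold change was beyond 0.5 in either direction. Of 13984 genes tested in JJN3, 20.6% were called higher and 21.3% lower. The median log2 fold change of the members was 0.69, against -0.00036 over all genes tested. Other features of the JJN3 libraries moved with THZ1. The share of mitochondrial reads was 3.36% and 1.65% with DMSO and 5.34% and 6.63% with THZ1. Of the 10 plasma cell markers 5 fell and 0 rose by edgeR, with a median of -0.51, among them IRF4 (-0.55 ± 0.093) and XBP1 (-0.61 ± 0.086). At an unadjusted p under 0.05, 2 were higher, PRDM1 (0.49 ± 0.092) and IGJ (0.27 ± 0.11), both under the limit. DESeq2 was not run on the markers. Both B cell markers that could be tested fell, CIITA (-1.61 ± 0.092) and MS4A1 (-1.24 ± 0.35). Their part, and that of the other marker levels given above, in the members' changes was not tested. In the H929-labelled libraries 4 members were higher and 2 were lower under the THZ1 label, where 33.1% of 14863 genes were called higher and 32.6% lower. The median over the members was 0.44 there, against 0.014 over all genes tested.

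**Figure D1:**
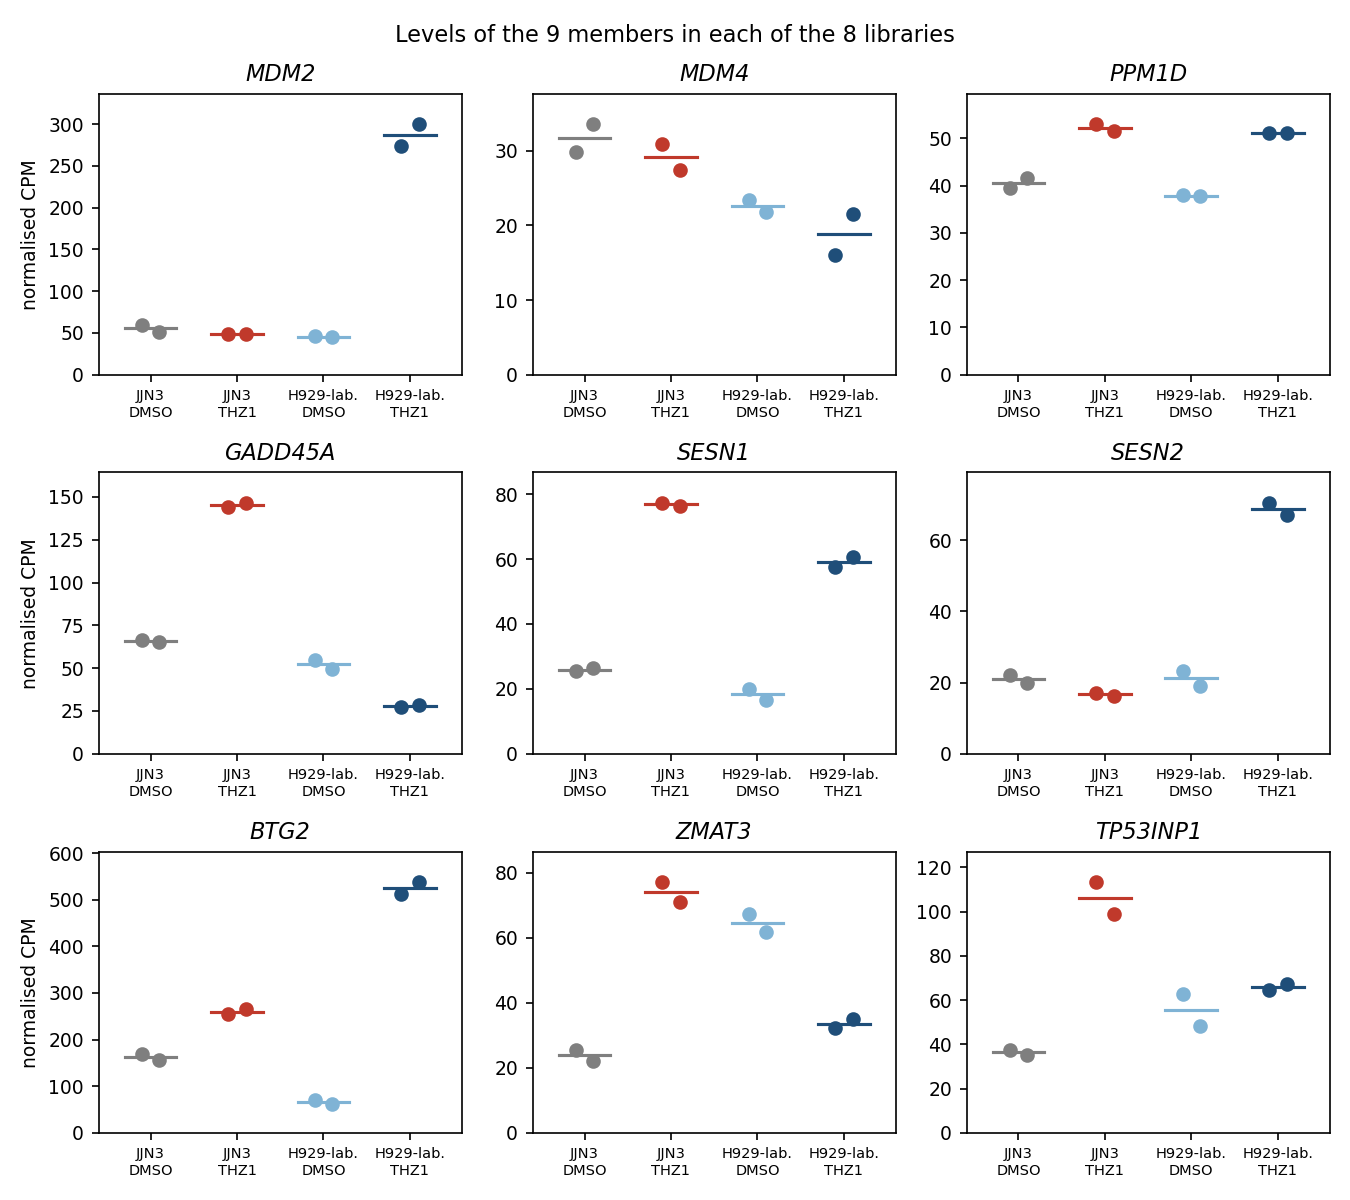
Normalised counts-per-million values (CPM, vertical axis from 0) of the 9 members in each library, with the 4 groups along the horizontal axis, a point for each library and a line at the group mean. MDM2, SESN2 and BTG2 were highest in the H929-labelled THZ1 libraries, while GADD45A, SESN1, ZMAT3, TP53INP1 and PPM1D were highest in the JJN3 THZ1 libraries. For SESN1, ZMAT3 and PPM1D the highest group was not called apart from the next.

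MDM2 (ENSG00000135679, GRCh37 chr12:69201957-69239324, plus strand), the main ligase for p53, had 1159 and 994 reads in the JJN3 DMSO libraries and 789 and 888 in the JJN3 THZ1 libraries. In the H929-labelled libraries it had 854 and 822 reads with DMSO and 5198 and 5689 with THZ1. Neighbouring groups in the order of levels were compared in the fit of all 8 libraries, which called 37.6% of 16122 genes for JJN3 THZ1 against DMSO and 62.1% for the same comparison under the H929 labels. Across labels it called 61.5% between the DMSO groups, 63.9% between the THZ1 groups, 63.0% for H929-labelled THZ1 against JJN3 DMSO and 67.5% for JJN3 THZ1 against H929-labelled DMSO. On the normalised scale the JJN3 libraries lay at 60.0 and 50.9 CPM with DMSO against 48.3 and 49.4 with THZ1, so the groups did not overlap but lay close. The log2 fold change in JJN3 was -0.17 ± 0.096 (SE, n = 2 and 2; adjusted p = 0.153 by edgeR's quasi-likelihood test) and was not called. The H929-labelled THZ1 libraries, at 273 and 301 CPM, stood well above all the others, which lay between 45.6 and 60.0. The log2 difference under the H929 labels was 2.65 ± 0.063 (adjusted p = 4.5e-15). Ordered by mean, H929-labelled THZ1 was followed by JJN3 DMSO, JJN3 THZ1 and H929-labelled DMSO, and of these neighbours only the first pair was called apart. MDM2 overlaps the gene CPM, which encodes carboxypeptidase M, and a long noncoding RNA gene on the opposite strand. On its own strand it overlaps another such RNA gene and a processed pseudogene, which a strand setting would not separate. Whether reads were assigned by strand is not given in the sources used here. The count of MDM2 is therefore uncertain over the overlaps. MDM4, SESN1 and PPM1D also overlap annotated noncoding RNA genes or pseudogenes.

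MDM4 (ENSG00000198625, chr1:204485507-204527248, plus strand), the partner of MDM2 that blocks p53 activity, had, with PPM1D, the narrowest range of group means among the members. Its JJN3 libraries lay at 29.9 and 33.6 normalised CPM with DMSO and at 30.9 and 27.4 with THZ1, and these overlapped. The H929-labelled libraries lay at 23.4 and 21.8 CPM with DMSO and 16.1 and 21.5 with THZ1. The fitted changes were -0.11 ± 0.11 in JJN3 (adjusted p = 0.408, edgeR) and -0.26 ± 0.12 under the H929 labels (adjusted p = 0.0563), and neither was called. Its means fell in the order JJN3 DMSO, JJN3 THZ1, H929-labelled DMSO and H929-labelled THZ1, and no neighbours in that order were called apart. The highest and the lowest group did differ, with H929-labelled THZ1 against JJN3 DMSO at a log2 difference of -0.76 ± 0.12 (adjusted p = 3.74e-05).

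PPM1D (ENSG00000170836, chr17:58677554-58743641, plus strand) encodes WIP1, a phosphatase that turns off p53 and the kinases upstream of it. In JJN3 it lay at 39.4 and 41.5 normalised CPM with DMSO and 53.1 and 51.4 with THZ1. The H929-labelled libraries were at 38.0 and 37.7 with DMSO and at 51.1 and 51.0 with THZ1. The THZ1-labelled libraries were thus above the DMSO libraries under both labels without overlap. The log2 differences were 0.38 ± 0.086 in JJN3 (adjusted p = 0.00272, edgeR) and 0.44 ± 0.070 under the H929 labels (adjusted p = 2.94e-05), both under the limit of 0.5 and so not called. JJN3 THZ1 and H929-labelled THZ1 did not differ beyond their spread (log2 difference 0.03 ± 0.074, adjusted p = 0.702), and nor did JJN3 DMSO and H929-labelled DMSO (0.09 ± 0.077, adjusted p = 0.279).

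GADD45A (ENSG00000116717, chr1:68150884-68154017, plus strand), a stress sensor that binds PCNA and stress kinases, moved in opposite directions under the 2 sets of labels. JJN3 libraries lay at 66.3 and 65.2 normalised CPM with DMSO and 144 and 147 with THZ1. H929-labelled libraries lay at 54.8 and 49.6 with DMSO and 27.6 and 28.6 with THZ1. The groups did not overlap under either set of labels. GADD45A rose in JJN3 by 1.16 ± 0.077 on the log2 scale (adjusted p = 1.11e-06, edgeR). Under the H929 labels it was lower with THZ1, at -0.89 ± 0.079 (adjusted p = 3.36e-08). From the highest mean to the lowest the groups were JJN3 THZ1, JJN3 DMSO, H929-labelled DMSO and H929-labelled THZ1. The middle pair, which differed by 0.33 ± 0.074, was not called apart, and the other neighbours were.

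**Figure D2:**
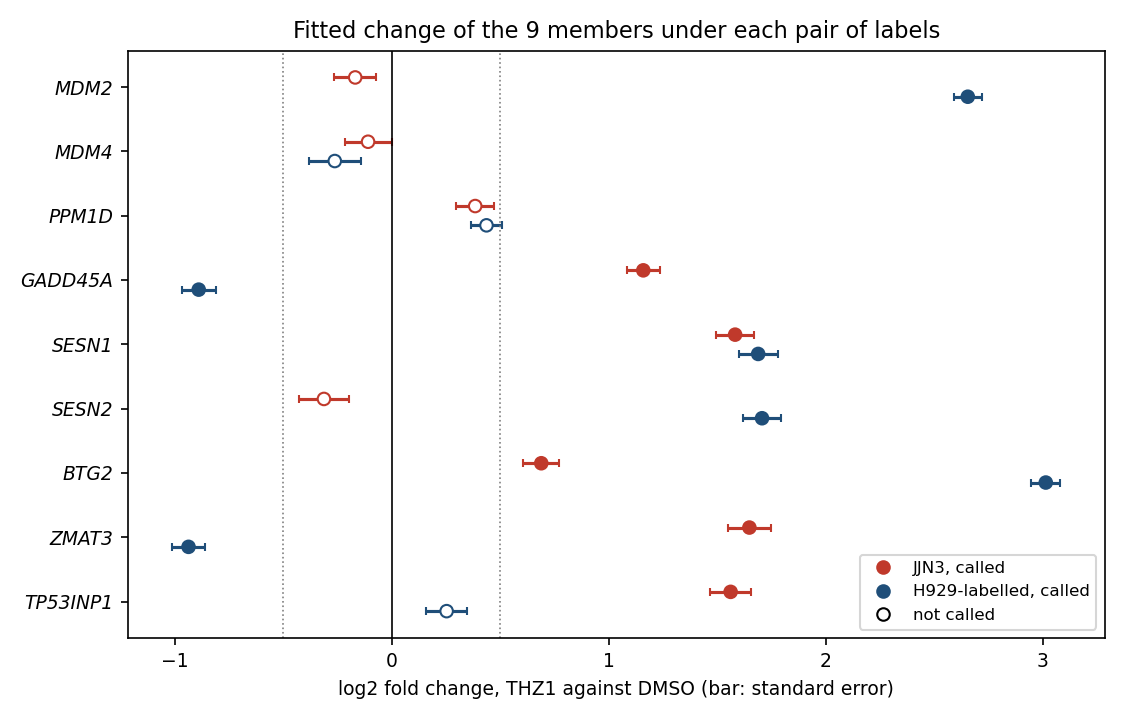
Log2 fold change of THZ1 against DMSO (horizontal axis) for each member in JJN3 (red) and under the H929 labels (blue). Bars are standard errors derived from edgeR's test, n = 2 and 2. Filled points were called, open points were not, and dotted lines mark 0.5 in each direction. MDM2, SESN2 and BTG2 were far higher under the H929 labels, and GADD45A and ZMAT3 changed in opposite directions.

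The sestrins are stress-induced inhibitors of mTORC1 signalling, a nutrient-sensing growth pathway. SESN1 (ENSG00000080546, chr6:109305512-109416049, minus strand) lay at 25.4 and 26.5 normalised CPM in JJN3 DMSO and 77.4 and 76.3 in JJN3 THZ1 libraries. It lay at 20.0 and 16.7 in H929-labelled DMSO and 57.5 and 60.5 in H929-labelled THZ1 libraries. SESN1 was therefore several times higher in the THZ1-labelled groups under both labels, with no overlap. The log2 fold change was 1.58 ± 0.086 in JJN3 (adjusted p = 6.81e-07, edgeR) and 1.69 ± 0.089 under the H929 labels (adjusted p = 5.17e-11). JJN3 THZ1 and H929-labelled THZ1, the 2 highest, were 0.38 ± 0.082 apart on the log2 scale (adjusted p = 5.0e-04, edgeR). The 2 DMSO groups were the lowest, JJN3 DMSO being above H929-labelled DMSO by 0.498 ± 0.098 (adjusted p = 2.4e-04, edgeR). Both differences were under the limit of 0.5 and so not called.

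SESN2 (ENSG00000130766, chr1:28586029-28609002, plus strand) lay at 22.1 and 19.9 normalised CPM in JJN3 DMSO libraries and 17.2 and 16.2 in JJN3 THZ1 libraries. The H929-labelled libraries lay at 23.2 and 19.2 with DMSO and 70.6 and 67.3 with THZ1. The H929-labelled THZ1 libraries were far above all others. In JJN3 the log2 fold change was -0.31 ± 0.12 (adjusted p = 0.0379, edgeR), under the limit of 0.5 and not called. For the H929 labels it was 1.71 ± 0.087 (adjusted p = 3.03e-11). The 3 lower groups followed as H929-labelled DMSO, JJN3 DMSO and JJN3 THZ1, and the neighbours among them were not called apart.

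BTG2 (ENSG00000159388, chr1:203274619-203278730, plus strand), an antiproliferative protein that recruits mRNA deadenylases, reached the highest count of any member, 10201 reads in a library. It lay at 170 and 155 normalised CPM in JJN3 DMSO and at 254 and 265 in JJN3 THZ1. The H929-labelled libraries lay at 69.9 and 60.9 with DMSO and at 513 and 539 with THZ1. All 4 groups were called apart from their neighbours, in the order H929-labelled THZ1, JJN3 THZ1, JJN3 DMSO and H929-labelled DMSO. BTG2 rose by 0.69 ± 0.083 in JJN3 (log2, adjusted p = 4.1e-05, edgeR) and was higher by 3.01 ± 0.067 under the H929 labels (adjusted p = 2.09e-15). Between the DMSO groups it was lower in H929-labelled DMSO than in JJN3 DMSO, with a log2 difference of -1.31 ± 0.081 (adjusted p = 4.1e-10).

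ZMAT3 (ENSG00000172667, chr3:178677909-178790003, minus strand) encodes an RNA-binding zinc finger protein that acts in p53-dependent growth suppression. In JJN3 it lay at 25.6 and 22.2 normalised CPM with DMSO and 77.3 and 71.1 with THZ1. The H929-labelled libraries lay at 67.4 and 61.7 with DMSO and 32.3 and 34.9 with THZ1. The level of the JJN3 THZ1 libraries was close to that of the H929-labelled DMSO libraries (log2 difference 0.20 ± 0.085, not called). ZMAT3 rose in JJN3 by 1.65 ± 0.098 (log2, adjusted p = 8.82e-07, edgeR) and was lower with THZ1 under the H929 labels, at -0.94 ± 0.076 (adjusted p = 1.06e-08). H929-labelled THZ1 and JJN3 DMSO were the lowest groups and, 0.49 apart, lay just under the limit.

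TP53INP1 (ENSG00000164938, chromosome 8, minus strand) encodes a nuclear protein that promotes p53 activity and autophagy. JJN3 libraries lay at 37.4 and 35.3 normalised CPM with DMSO and at 114 and 99.0 with THZ1. The H929-labelled libraries lay at 62.7 and 48.2 with DMSO and at 64.7 and 67.0 with THZ1. The H929-labelled DMSO pair had the widest spread of any group of this gene relative to its mean. TP53INP1 rose in JJN3 by 1.56 ± 0.093 (log2, adjusted p = 8.82e-07, edgeR), and under the H929 labels the log2 difference of 0.25 ± 0.093 (adjusted p = 0.0204) was under the limit and not called. It was 0.09 ± 0.073 without H929 DMSO replicate 2 and 0.45 ± 0.075 without H929 DMSO replicate 1. The order was JJN3 THZ1, H929-labelled THZ1, H929-labelled DMSO and JJN3 DMSO, in which the middle pair was not called apart. The gene overlaps NDUFAF6 on the opposite strand, so its reads cannot be told from those of the overlap without a stated strand setting.

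The number of members whose groups did not overlap was 6 higher and 2 lower in JJN3, with MDM4 overlapping. Over all genes tested in JJN3, 38.5% did not overlap with THZ1 higher and 41.4% with THZ1 lower. Under the H929 labels, 6 members did not overlap with THZ1 higher and 3 with THZ1 lower, where the shares over all genes were 45.5% and 45.5%.

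The difference between the 2 labelled responses was tested as an interaction in one fit of all 8 libraries, with called meaning an adjusted p under 0.05 by edgeR's quasi-likelihood test. It was called for 6 of the 9 members, 3 in each direction, and 62.0% of 16122 genes were called in all, with 29.7% lower and 32.3% higher. The response under the H929 labels exceeded that in JJN3 by 2.83 ± 0.12 on the log2 scale for MDM2 (adjusted p = 1.53e-11), by 2.33 ± 0.11 for BTG2 (adjusted p = 5.6e-11) and by 2.03 ± 0.15 for SESN2 (adjusted p = 6.13e-09). It was below that in JJN3 for ZMAT3 (-2.57 ± 0.13, adjusted p = 8.19e-11), GADD45A (-2.04 ± 0.11, adjusted p = 1.48e-10) and TP53INP1 (-1.30 ± 0.15, adjusted p = 1.33e-06). For MDM4, SESN1 and PPM1D the differences were -0.14 ± 0.17, 0.12 ± 0.13 and 0.06 ± 0.11, and these were not called. Since the H929-labelled groups differ in source, this is a difference between the labelled contrasts and not one of drug response between cell lines.

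Across the labels, H929-labelled DMSO was compared with JJN3 DMSO. Of the 9 members, 2 were higher, ZMAT3 by 1.43 ± 0.092 and TP53INP1 by 0.61 ± 0.11 on the log2 scale, and BTG2 was lower, against 30.8% and 30.7% of all genes. Between H929-labelled THZ1 and JJN3 THZ1, where 31.6% of all genes were higher and 32.3% lower, 3 members were higher and 4 lower. MDM2 was higher by 2.55 ± 0.085 and SESN2 by 2.04 ± 0.10, while GADD45A differed by -2.37 ± 0.077. MDM4 and TP53INP1 differed by -0.63 ± 0.13 and -0.69 ± 0.10.

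Levels of different genes were compared per length, as CPM per kilobase of exon (RPKM). In JJN3 DMSO, BTG2 (59.0 ± 3.8 RPKM, SD, n = 2) and GADD45A (34.2 ± 0.40) were the highest, and the other 7 lay between 2.12 for ZMAT3 and 6.68 for MDM2. In JJN3 THZ1 the same 2 were highest, at 94.1 ± 2.8 and 75.5 ± 0.98, followed by TP53INP1 at 18.8 ± 1.8 and SESN1 at 10.6 ± 0.10. MDM2, at 5.88 ± 0.096 RPKM, was in sixth place. In the H929-labelled THZ1 libraries MDM2, at 34.5 ± 2.3 RPKM, took the second place after BTG2 at 191 ± 6.6. MDM4 was the lowest member there, at 1.71 ± 0.35. In H929-labelled DMSO, GADD45A and BTG2 were at 27.1 ± 1.9 and 23.7 ± 2.3 RPKM.

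**Figure D3:**
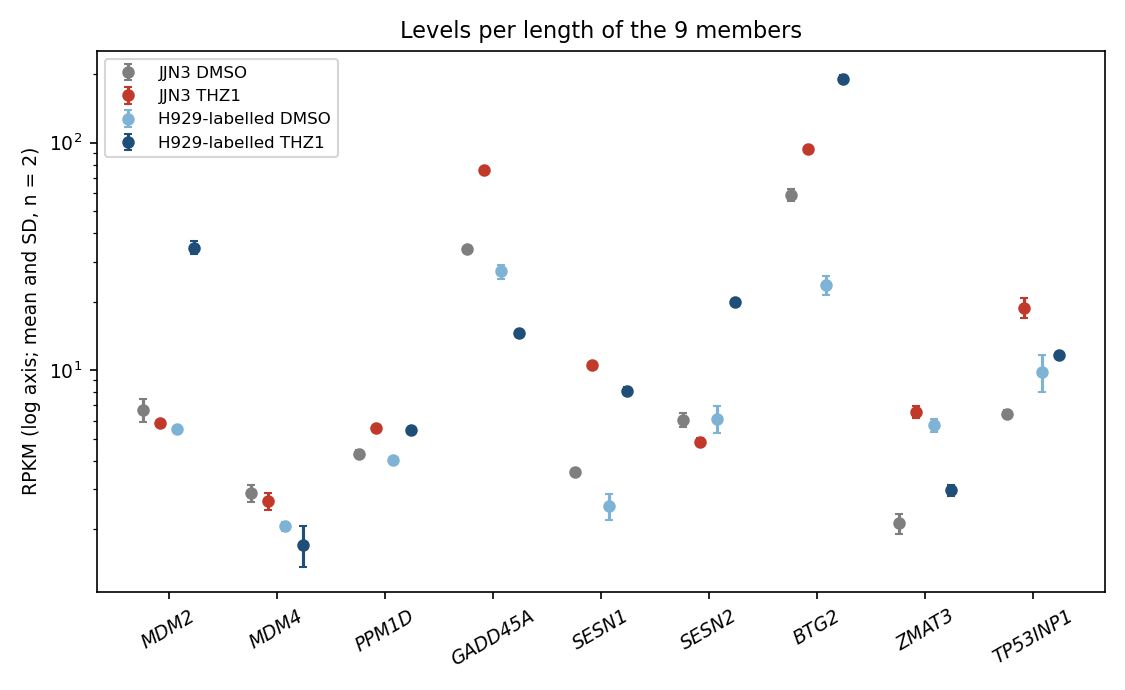
RPKM of the 9 members (vertical log axis, points are means of 2 libraries, bars are SDs) in the 4 groups. BTG2 and GADD45A were the highest members in all groups but H929-labelled THZ1, where MDM2 took the second place at 34.5 RPKM.

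The other p53 targets, in 4 lists of 51 genes in all, showed a mixed pattern in JJN3. Of 42 tested, 8 rose, 9 fell and 25 were not called, and the median log2 fold change was -0.03 against -0.00036 over all genes tested. These counts stand beside 20.6% of all genes rising and 21.3% falling. Under the H929 labels 22 of 47 were higher with THZ1, 9 were lower and 16 were not called, with a median of 0.45 against 0.014, beside 33.1% of all genes higher and 32.6% lower. One of them, TP53I11, was at 0 in both H929-labelled DMSO libraries and had 148 and 122 reads with THZ1, and the median was 0.45 also with it at its bound. Without H929 DMSO replicate 2 the counts of 22 higher and 9 lower were the same.

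Among targets of cell cycle arrest, 2 of 5 tested in JJN3 rose and 1 fell, beside 20.6% of all genes rising and 21.3% falling. CDKN1A, the cyclin-dependent kinase inhibitor p21, had 64 and 58 reads with DMSO and 114 and 148 with THZ1 in JJN3, and rose by 1.29 ± 0.20 (log2, adjusted p = 2.5e-04, edgeR). In the H929-labelled libraries it had 73 and 127 reads with DMSO and 4469 and 4469 with THZ1, a log2 difference of 5.43 ± 0.12 that was 5.92 ± 0.10 without DMSO replicate 2. PLK2, a polo-like kinase of the stress response, rose in JJN3 by 1.15 ± 0.22 and its relative PLK3 fell by 1.15 on the log2 scale. PLK3 was not called under the H929 labels (-0.34 ± 0.10).

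Of 13 apoptosis targets tested in JJN3, 2 rose and 4 fell. BBC3, the BH3-only killer protein PUMA, rose by 1.75 ± 0.20 on the log2 scale and PERP, a membrane protein, by 0.65 ± 0.11. BAX, the pore-forming protein of the outer mitochondrial membrane, fell by 1.26 ± 0.097, and PMAIP1, the BH3-only protein NOXA, fell by 1.00 ± 0.10. BAX had 895 and 867 reads with DMSO and 307 and 337 with THZ1 in JJN3, and 888 and 865 against 1309 and 1209 under the H929 labels. Thus BAX was lower with THZ1 in JJN3, and in the H929-labelled libraries the log2 difference of 0.48 ± 0.068 was under the limit. PMAIP1 was lower under the H929 labels too, at -1.28 ± 0.088. Of the 16 apoptosis targets tested there 6 were higher and 2 lower. Over all genes tested, 20.6% rose and 21.3% fell in JJN3, and 33.1% were higher and 32.6% lower under the H929 labels. Chosen after the values were seen, EDA2R, a TNF receptor family member, had 0 and 6 reads with DMSO and 432 and 484 with THZ1 under the H929 labels, and at most 10 reads in the JJN3 libraries. PHLDA3, an inhibitor of AKT also chosen after its values were seen, had 1 and 13 reads against 467 and 453, and at most 3 in JJN3. Other targets, chosen in the same way, went the other way under the H929 labels. FAS of this list had 1074 and 1028 reads with DMSO and 252 and 265 with THZ1. SFN of the cell cycle arrest list had 1326 and 1083 reads against 9 and 4.

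In the DNA repair and nucleotide supply list 0 of 4 genes passed in JJN3, and 3 of 4 were higher under the H929 labels. At an unadjusted p under 0.05, 2 of these 4 were lower and 1 was higher in JJN3 by edgeR, and all 4 log2 fold changes were within 0.5. DESeq2 was not run on the lists. The list of metabolism, autophagy and secretion had 4 risers and 4 fallers among 20 tested in JJN3. Its named risers were CD82, a tetraspanin (1.09 ± 0.21), and FUCA1, a lysosomal fucosidase (1.05 ± 0.086). STEAP3, a metalloreductase, fell by 1.64 ± 0.16 and NINJ1, a membrane protein of plasma membrane rupture, fell by 0.90 ± 0.15. In the H929-labelled comparison CD82, NINJ1 and STEAP3 were lower with THZ1 (-2.44 ± 0.18, -2.42 ± 0.10 and -1.24 ± 0.074), and FUCA1 was not called (-0.23 ± 0.082). There 9 of the 21 genes tested were higher and 6 were lower. Over all genes tested, 20.6% rose and 21.3% fell in JJN3, and 33.1% were higher and 32.6% lower under the H929 labels.

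**Figure D4:**
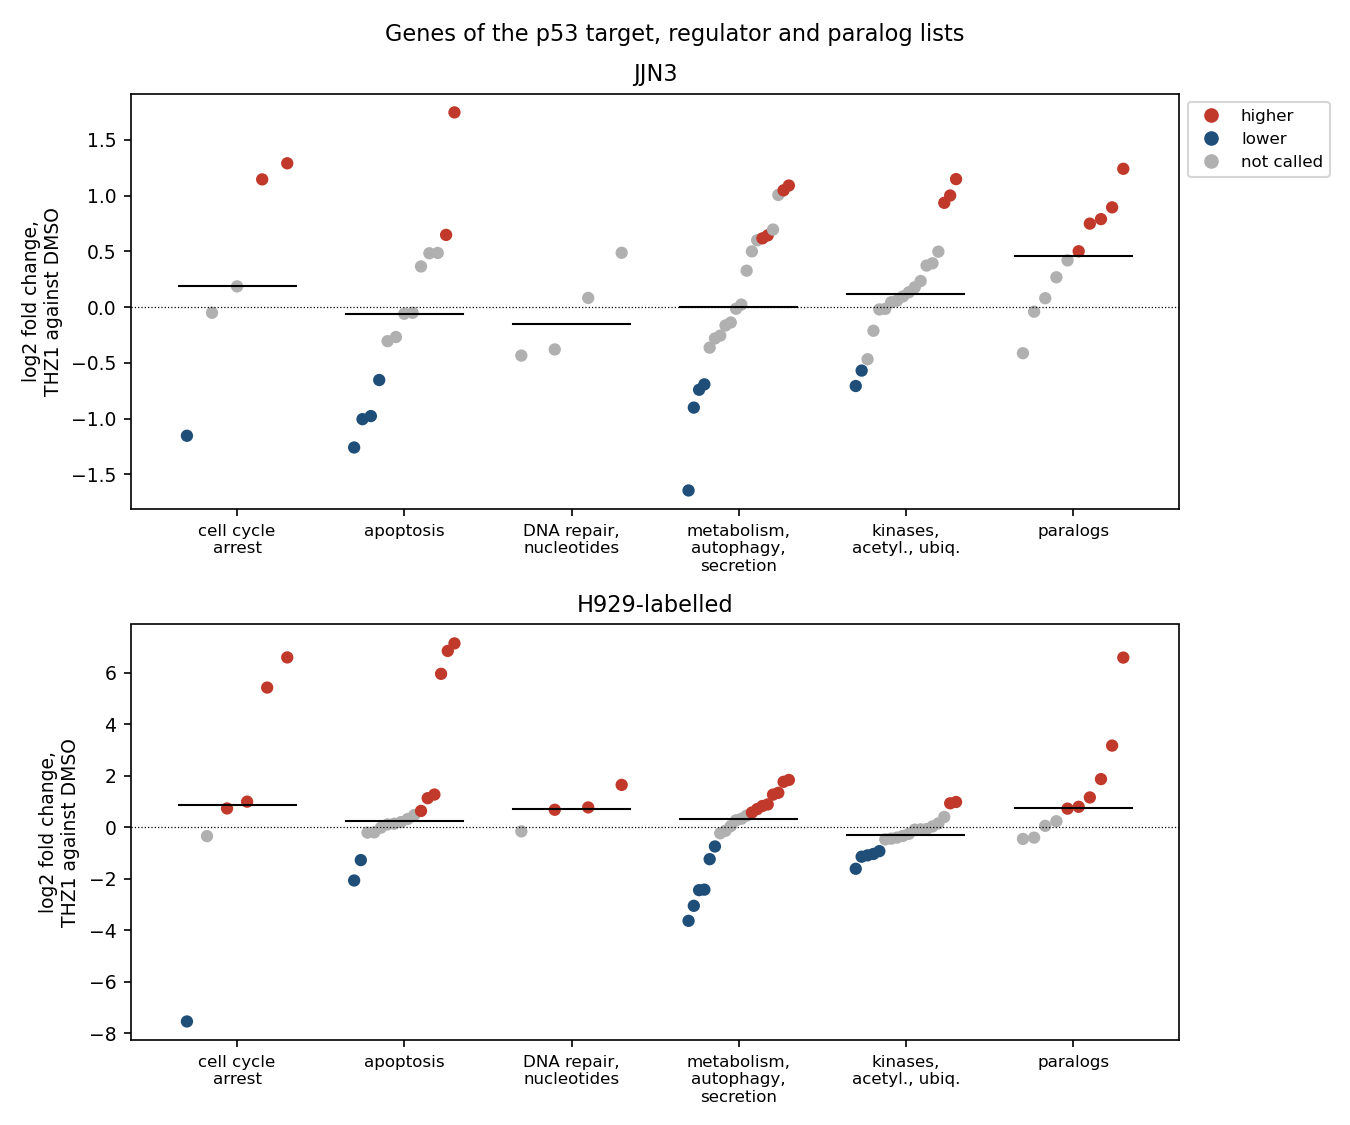
Log2 fold change of THZ1 against DMSO (vertical axis) in JJN3 (upper panel) and under the H929 labels (lower panel, wider axis). Shown are the tested genes of 4 p53 target lists, the regulator list and the paralogs, ordered within each list. The regulator list, with kinases, acetyltransferases and ubiquitin regulators, also holds RPL5, RPL11, CDKN2A, SIRT1 and DAXX. Red points were called higher, blue lower and grey not, the black lines are medians, and TP53I11, at 0 in a whole group, is left out of the points. The targets spread to both sides of 0 in JJN3, with 8 higher and 9 lower.

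A list of 18 p53 regulators held kinases, acetyltransferases and ubiquitin regulators, and also RPL5, RPL11, CDKN2A, SIRT1 and DAXX. Of these 18 genes, 3 rose and 2 fell in JJN3, with a median log2 fold change of 0.11 against -0.00036 over all genes tested. Of all genes, 20.6% rose and 21.3% fell. The risers included CREBBP, an acetyltransferase (1.15 ± 0.099), and HIPK2, a kinase of p53 (1.00 ± 0.10). KAT5, another acetyltransferase, fell by 0.71 ± 0.11 and CHEK1, a checkpoint kinase, by 0.57 ± 0.080. Under the H929 labels CREBBP and HIPK2 were not called (-0.09 ± 0.061 and 0.03 ± 0.060) and CHEK1 was higher (0.93 ± 0.056). There 2 of the 18 were higher and 5 lower, with a median of -0.29 against 0.014. Over all genes tested under these labels, 33.1% were higher and 32.6% lower.

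Close relatives of the members, the 11 paralogs, had 5 risers and 0 fallers among 10 tested in JJN3 (median log2 fold change 0.46), and 6 higher and 0 lower under the H929 labels (median 0.76) by edgeR. At an unadjusted p under 0.05 by edgeR, 1 and 2 of them were lower, and 7 and 7 were higher. Over all genes tested, 20.6% rose and 21.3% fell in JJN3 with a median of -0.00036, and 33.1% were higher and 32.6% lower under the H929 labels with a median of 0.014. SESN3, the third sestrin, had 821 and 648 reads with DMSO and 1522 and 1510 with THZ1 in JJN3, and rose by 1.24 ± 0.11. It had 0 and 6 reads in the H929-labelled DMSO libraries and 295 and 330 in the H929-labelled THZ1 libraries. PPM1A, a phosphatase of the same family as PPM1D, rose by 0.90 ± 0.077 in JJN3, and its 0.24 ± 0.069 under the H929 labels was under the limit.

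The members did not share a single pattern over the 8 libraries. As a description, Pearson's r between log2 CPM over the 8 libraries was highest for PPM1D and SESN1 (0.987) and for SESN2 and MDM2 (0.979), and lowest for SESN2 and GADD45A (-0.850). The points share the 4 groups, so these values describe group means. For each member the 2 most similar genes among 8957 others were taken, all with a mean of 3 or more in log2 CPM. They were CLK3 and ST8SIA4 for MDM2 (r = 0.998 and 0.996), EDEM3 and KLHL20 for SESN2 (0.994 and 0.993), and RUFY3 and PI4K2B for BTG2 (0.997 and 0.996). For GADD45A they were CHD7 and TMX4 (0.998 and 0.997), for ZMAT3 ATRX and PDZD8 (0.994 and 0.992), and for TP53INP1 BNIP3L and GNPTG (0.989 and 0.986). SESN1 was nearest to SNX29 and HIST1H2AG (both 0.996), the latter a histone gene with near-identical copies whose count is uncertain. PPM1D was nearest to LY6E and LIPA (both 0.996), and MDM4 to STK39 and ASPM (0.956 and 0.955). With 8 libraries in 4 groups many genes reach such values. The number with r above 0.95 was 7 for MDM4, 194 for MDM2 and 214 for BTG2.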

How the data were processed

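RNA-seq of 8 libraries was analysed, 2 for each of JJN3 DMSO, JJN3 THZ1, H929 DMSO and H929 THZ1 as labelled. The values used were raw counts of reads per gene, deposited by the authors as tables for each line. Per the study's methods and processing notes, 50-base single-end reads were aligned to hg19 with STAR 2.5.2a keeping uniquely mapped reads, and counted with featureCounts over Ensembl genes. The authors' DESeq2 1.12.4 tables hold fold changes and p-values, which were not used, and only their column pairing identifiers with symbols was read. Genes with near-identical copies may be undercounted. The members and the gene lists were chosen with earlier results of these data known.

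Counts were normalised by the trimmed mean of M-values, filtered by edgeR's filterByExpr and tested with edgeR 4.0.16 quasi-likelihood tests (R 4.3.3, limma 3.58.1), within each line for THZ1 against DMSO and over all 8 libraries for the interaction and the differences between labels, with Benjamini-Hochberg adjustment over all genes tested. Alternatives were DESeq2 1.42.0, its size factors in edgeR, total counts, no filter, a filter of 1 CPM in 2 libraries, a replicate block, leaving out each library, all 8 libraries in 1 fit, a log2 limit of 1 and adjusted p alone. Named list genes were the 2 largest called rises and falls of each list in JJN3 among genes whose mean log2 CPM was 1 or more, and for each member the 2 genes most correlated with it were named. Standard errors of log2 fold changes were the absolute change divided by the square root of the F statistic of edgeR's test. They rest on a spread moderated over all genes, not on the libraries of a group alone. RPKM used union exon lengths from the GENCODE annotation on GRCh37, which may differ from the annotation counted. On simulated counts for the JJN3 comparison over 13984 genes, 76 of 100 genes changed by 1 and 94 of 100 changed by 2 on the log2 scale were recovered. There 8 unchanged genes were called. For the H929 labels 78 and 94 of 100 were recovered, with 11 unchanged genes called. For the interaction 63 and 76 of 100 were recovered, with 13 unchanged genes called.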

Additional observations from a re-analysis of the deposited data

Results flagged for a closer look

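For 6 members the log2 fold change under the H929 labels and that in JJN3 differed by the interaction test. The difference, H929-labelled minus JJN3, was 2.83 for MDM2, 2.33 for BTG2 and 2.03 for SESN2, and it was -2.57 for ZMAT3, -2.04 for GADD45A and -1.30 for TP53INP1. With 62.0% of all genes called in the same test, and with H929-labelled groups that differ in light chain, source and treatment cannot be told apart in these differences.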

How the results depend on the processing

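No called value changed sign, while the uncalled interaction of MDM4 ranged from -0.34 to 0.07 when single libraries were left out. Over 15 settings at the same limits, 531 of 540 values of single members kept their side of the threshold, and the other 9 came to pass the limit of 0.5 between labels, for MDM4, SESN1 and ZMAT3. With adjusted p alone, 1 member was lower in JJN3 instead of 0, SESN2, and 6 were higher instead of 5, with PPM1D, while 6 were higher under the H929 labels instead of 4, with PPM1D and TP53INP1. With a log2 limit of 1, 0 members were lower under the H929 labels instead of 2, and 4 were higher in JJN3 instead of 5, without BTG2. Shares of all genes were counted only at the main limits and settings. Counts under changed limits or settings therefore show only which members cross a limit. Between H929-labelled DMSO and JJN3 DMSO, 3 members were lower with total counts, 3 with no filter and 2 with the 1 CPM filter, instead of 1. The members that came to pass were MDM4 and SESN1, which lay just inside the limit in the main fit, at -0.488 and -0.498. Over the alternatives they ranged from -0.521 to -0.479 and from -0.531 to -0.488. Total counts moved the median of all genes to -0.103 in JJN3 and to 0.181 in the interaction, and no filter moved it to 0.131 in JJN3. Replicates of the same number did not deviate together (correlation 0.0096 in JJN3 and -0.011 under the H929 labels). With 2 libraries a group, that cannot show whether libraries of the same number were made together. The fit with the replicate as a block changed 0 of 77 results. Leaving out H929 DMSO replicate 2 was added for the gene lists after the data were seen, and called 22 targets higher and 11 lower in the interaction instead of 24 and 10. With 2 libraries a group, a change near the limit of 0.5 was not resolved.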
